A study of Mus musculus with 10 samples.

Results

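Genes linked to the survival or resilience of retinal ganglion cells (RGCs) after axon injury (Spp1, Ucn, Crhbp, Timp2, Mmp9, Mmp12, Ndnf, Evc2 and Igf1) were followed through single-cell RNA sequencing of mouse RGCs. They were taken by their symbols and make up 9 of the 34254 features of the count tables. RGCs are the neurons whose axons form the optic nerve. The cells came from 12-week-old 129S1/SvImJ wild-type mice of both sexes, either uninjured (6 libraries) or 2 weeks after optic nerve crush (ONC, 4 libraries), a lesion of the RGC axons behind the eye. They were captured on antibody to Thy1 after macrophages (and, in the study's methods but not in the labels, amacrine cells) had been removed, with 10 retinas pooled per batch, and sorted by FACS according to the design text. The question asked of these genes was how much each was used before and after ONC, in how many RGCs, and in which ones.

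Osteopontin (Spp1), insulin-like growth factor 1 (Igf1) and neuron-derived neurotrophic factor (Ndnf) are secreted proteins that act on receptors of nearby cells or of the cell that made them. Urocortin (Ucn) is a peptide of the corticotropin-releasing factor family, and the secreted protein encoded by Crhbp binds such peptides and keeps them from their receptors. Mmp9 and Mmp12 encode metalloproteinases that cut proteins of the extracellular matrix, Timp2 encodes an inhibitor of such enzymes, and Evc2 encodes a protein of the base of the primary cilium that takes part in hedgehog signalling.

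The tables held 1683 uninjured and 1609 injured cells. Libraries held 2839693 to 23180399 unique molecular identifiers (UMIs, each standing for 1 captured RNA molecule) in the uninjured and 4698799 to 8860536 in the injured group, and the median cell had 20437 to 34337 and 11257 to 14695. Injured libraries 3 and 4 shared 421 cell barcodes and differed by no more than counting noise (median chi-square over noise 0.985, against 2.28 between injured 1 and 2), so they were averaged to 1 sample, named injured 3/4. That left 6 uninjured and 3 injured samples. Counts of injured cells given below add all 4 libraries and so hold shared cells more than once (1188 barcodes were distinct). Xist, the RNA of the silenced X chromosome of females, had UMIs in 62.1% of cells in injured 1, in 67.4% in injured 2 and in no more than 0.569% in any other library. The reporter mCherry, used by the study in viral vectors, had UMIs in 86.0% and 84.3% of cells of injured 3 and 4, in 7.99% and 15.0% of cells of injured 1 and 2, and in 0.0% of uninjured cells. No uninjured library had Xist above 0.461% or any mCherry. The study's methods name both sexes, but Xist shows almost no female cells in the uninjured libraries. Injured 1 and 2 thus differed from the uninjured libraries also in Xist, while injured 3 and 4 did not. All injured libraries differed from them in mCherry, so virus cannot be told apart from injury in the comparison of conditions, and Xist, mCherry and library cannot be told apart among the injured samples. In injured 3/4, which had as little Xist as the uninjured libraries, the levels of Ucn, Mmp12, Timp2, Crhbp, Mmp9 and Evc2 given below also lay outside the uninjured range. All 7 pan-RGC markers were present in every sample, with a summed level of 6010 to 7710 CPM (UMIs of a gene relative to all UMIs of its sample, scaled to the usual common total) in uninjured and 4110 to 5370 CPM in injured samples. The labels do not say that libraries came from separate batches of mice, so p-values measure the spread between these samples, which may be technical in part. Fewer expressing cells and less RNA per cell cannot be told apart in a summed level, and after ONC many RGCs die, so that a change in each cell and a change in which cells were left cannot be told apart either.

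Of the 9 genes 6 differed between conditions in edgeR's quasi-likelihood test, adjusted over the 14234 genes tested. Ucn, Mmp12 and Timp2 were higher after ONC, and Crhbp, Mmp9 and Evc2 were lower. The same test called 44.0% of all genes, 21.3% as higher and 22.7% as lower, so 6 of 9 is to be read against a large change across the transcriptome. The samples of both conditions did not overlap for these 6 genes, as for 42.9% of all genes. Spp1, Ndnf and Igf1 did not pass the test and overlapped.

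**Figure D1:**
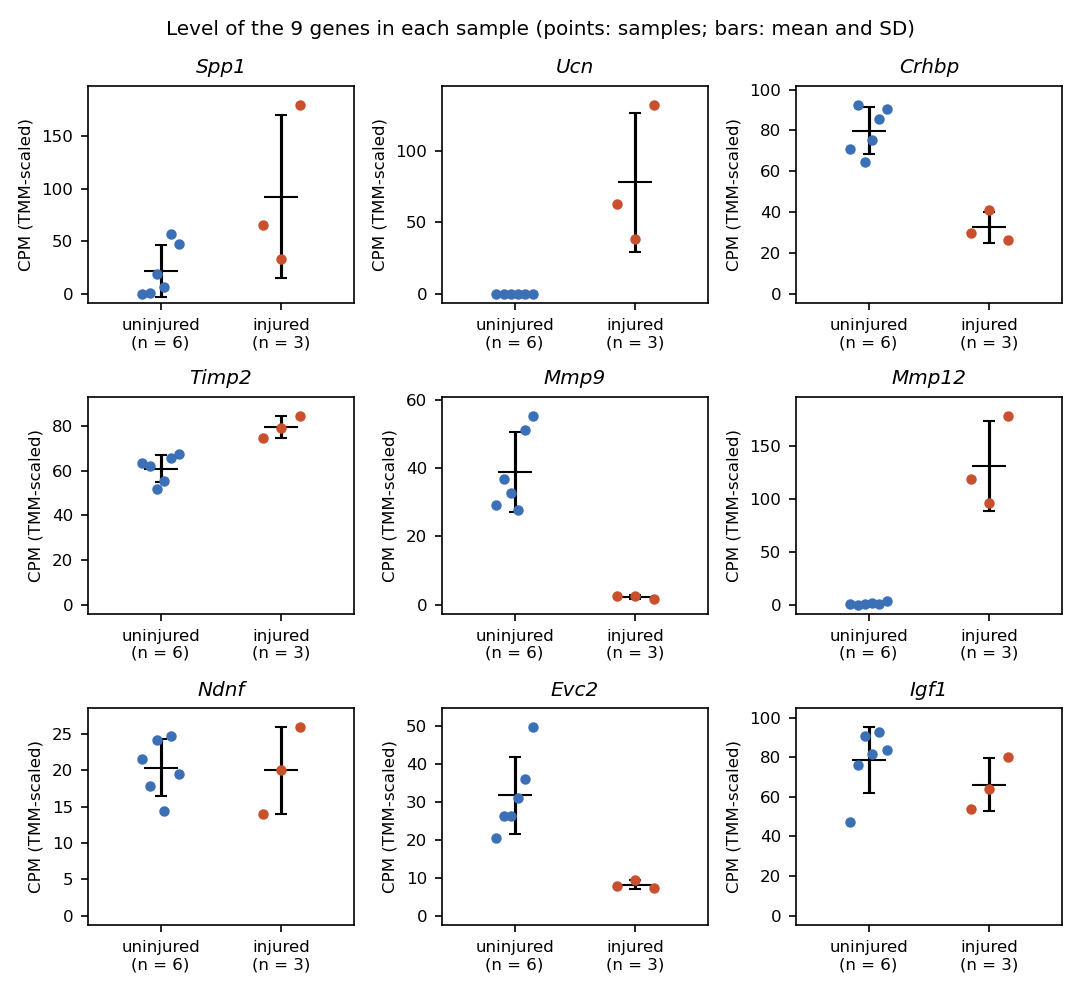
CPM scaled by TMM factors (y axis, linear) of each gene in 6 uninjured and 3 injured samples. Points are samples, and bars are the mean and SD. All 6 uninjured samples are at 0 for Ucn, and the 3 injured samples of Mmp9 lie between 1.61 and 2.47 CPM.

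Among the ligands, Ucn (chr5:31295334-31296231 of mm39, minus strand, 2 exons) was found after ONC and in no uninjured cell. Its level was 63.0, 38.2 and 132 CPM in injured samples 1, 2 and 3/4, and 0.0 CPM in each uninjured sample (adjusted p = 3.23e-05, edgeR). With a floor of 3 UMIs over the 52479590 UMIs of the uninjured group, or 0.0572 CPM, the mean injured level of 75.7 CPM, taken over library totals, was at least 1324-fold higher. Without injured 3/4 this limit was 847-fold (48.4 CPM). Ucn UMIs were in 239 of 1609 injured cells (14.9%), with 10.4, 11.7 and 17.2% in samples 1, 2 and 3/4, and in 0 of 1683 uninjured cells, which allows a share of up to 0.178% of cells with a UMI. This limit and the fold limit cover counting error only. A few cells held much of it, up to 80 UMIs in 1 cell, and the top 5% of cells held 70.4 to 85.0% of its UMIs in the injured libraries. Exons of Ucn overlap Trim54, a gene on the other strand, which had 4.2, 1.35 and 4.03 CPM in the injured samples and 0.0 CPM in the uninjured ones.

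Spp1 (chr5:104582165-104589235, plus strand, 7 exons) was uneven between samples and cells. In uninjured samples it ranged from 0.0 CPM in uninjured 1 through a median of 12.6 to 56.4 CPM in uninjured 5, and the injured samples had 65.1, 32.6 and 180.0 CPM. Injured 1 and 3/4 lay above every uninjured sample and injured 2 lay among them. The log2 fold change of 2.10 ± 0.91 (SE) did not pass the test (adjusted p = 0.0813, edgeR). Without injured 3/4 it was 1.20 (adjusted p = 0.411, edgeR). The test was passed without uninjured 5 (2.64, adjusted p = 0.0312, edgeR) and without uninjured 6 (2.46, adjusted p = 0.0494, edgeR). The level came from few cells, 55 of 1683 before and 103 of 1609 after ONC, and single cells held up to 165 and 175 UMIs.

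Igf1 (chr10:87693642-87772904, plus strand, 4 exons) was between 47.2 and 93.0 CPM in uninjured samples, with a median of 82.9, and at 54.1, 64.0 and 80.4 CPM in injured ones. Its log2 fold change of -0.26 ± 0.20 did not pass the test (adjusted p = 0.334, edgeR), and all 3 injured values lay within the uninjured range. The low end of that range was uninjured 1 alone. The other uninjured samples had 76.3 to 93.0 CPM, and injured 1 and 2 lay below them. Without uninjured 1 the log2 fold change of Igf1 was -0.344 and still did not pass (adjusted p = 0.0921, edgeR). Ndnf (chr6:65648574-65689310, plus strand, 4 exons) ranged from 14.4 to 24.8 CPM around a median of 20.5 in uninjured samples and had 14.0, 20 and 26.0 CPM after ONC. The change in Ndnf was -0.02 ± 0.22 on the log2 scale (adjusted p = 0.963, edgeR). For both genes the spread among samples was wider than the difference between the means. The long noncoding gene Igf1os overlaps an exon of Igf1 on the other strand, and was at no more than 1.05 CPM in any sample.

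Crhbp (chr13:95567879-95581841, minus strand, 7 exons), the binding protein of the family Ucn belongs to, fell. Uninjured samples had 64.6 to 92.5 CPM with a median of 80.4, and injured samples 29.9, 41.1 and 26.3 CPM. Every injured sample was below the lowest uninjured one, and the log2 fold change was -1.30 ± 0.18 (adjusted p = 1.20e-04, edgeR). Ucn and Crhbp thus moved in opposite directions in the same 3 samples.

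Timp2 (chr11:118191887-118246566, minus strand, 5 exons) rose by the smallest step of the 6 genes. Uninjured samples had 52.0 to 67.5 CPM with a median of 62.6, and injured samples had 74.9, 79.0 and 84.6 CPM. The groups did not overlap, and the log2 fold change was 0.39 ± 0.12 (adjusted p = 0.0220, edgeR). The call was lost without injured 2 (adjusted p = 0.0619) and without injured 3/4 (adjusted p = 0.0698).

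Both metalloproteinases changed strongly and in opposite directions. Mmp9 (chr2:164780439-164797771, plus strand, 13 exons) fell from 27.7 to 55.3 CPM, with a median of 34.6, to 2.45, 2.47 and 1.61 CPM. Its log2 fold change was -4.17 ± 0.33 (adjusted p = 1.68e-06, edgeR), an 18.0-fold lower level. Mmp12 (chr9:7344381-7369499, plus strand, 10 exons) rose from 0.0 to 2.95 CPM, with a median of 0.911, to 119, 96.3 and 179 CPM. The log2 fold change of Mmp12 was 6.94 ± 0.38 (adjusted p = 1.09e-07, edgeR), or 123-fold. No injured sample of either gene came near the uninjured range. Mmp1b, which overlaps Mmp12 on the other strand outside its exons, had 0.0 CPM in every sample.

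Evc2 (chr5:37495798-37582417, plus strand, 20 exons) fell as well. It was at 20.6 to 49.8 CPM with a median of 28.7 in uninjured samples and at 7.70, 9.43 and 7.39 CPM after ONC. Its log2 fold change was -1.97 ± 0.27 (adjusted p = 1.18e-04, edgeR), and all 3 injured samples were below the lowest uninjured one.

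The 250 bases before the start of the canonical transcript of the 9 genes were read from the mm39 genome and searched on both strands for TGANTCA, the core bound by AP-1, a factor made of Jun and Fos proteins, and for TGACGTCA, the cAMP response element bound by CREB and ATF proteins. Both families of factor act in injured neurons. TGANTCA was found once each before Crhbp, Mmp9 and Mmp12, and in 6.17% of the 21366 protein-coding promoters of the same length. TGACGTCA was found once, before Ucn, and in 1.71% of those promoters. The 4 sequences are shown because they belong to 4 of the 6 genes that changed, with the matched letters in capitals.
Ucn, chr5:31296232-31296481, minus strand: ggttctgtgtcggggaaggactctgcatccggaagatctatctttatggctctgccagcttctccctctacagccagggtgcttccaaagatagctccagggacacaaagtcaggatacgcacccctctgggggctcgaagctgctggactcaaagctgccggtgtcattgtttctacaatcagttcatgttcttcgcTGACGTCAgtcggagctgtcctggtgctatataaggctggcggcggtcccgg
Crhbp, chr13:95581842-95582091, minus strand: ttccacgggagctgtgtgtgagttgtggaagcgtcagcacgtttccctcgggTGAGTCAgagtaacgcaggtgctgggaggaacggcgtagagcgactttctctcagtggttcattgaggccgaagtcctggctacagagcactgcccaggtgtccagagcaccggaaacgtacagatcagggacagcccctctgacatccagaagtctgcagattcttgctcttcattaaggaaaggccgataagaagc
Mmp9, chr2:164789889-164790138, plus strand: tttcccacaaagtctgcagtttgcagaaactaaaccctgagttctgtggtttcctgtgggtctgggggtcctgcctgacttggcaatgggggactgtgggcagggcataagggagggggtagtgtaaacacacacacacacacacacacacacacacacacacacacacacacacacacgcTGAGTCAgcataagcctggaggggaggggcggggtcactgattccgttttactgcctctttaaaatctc
Mmp12, chr9:7347124-7347373, plus strand: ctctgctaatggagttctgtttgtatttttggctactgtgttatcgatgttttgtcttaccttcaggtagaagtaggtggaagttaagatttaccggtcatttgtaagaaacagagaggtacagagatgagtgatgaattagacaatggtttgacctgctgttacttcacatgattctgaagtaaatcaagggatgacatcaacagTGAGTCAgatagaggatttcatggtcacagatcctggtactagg
The match starts 52 bases before the transcript start of Ucn, 198 before that of Crhbp, 69 before that of Mmp9 and 44 before that of Mmp12. The same TGAGTCA stood before Mmp9, which fell, and before Mmp12, which rose. A match describes the sequence and is not a measured site.

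The number of RGCs carrying each gene was compared after every cell had been thinned to 8000 UMIs, because injured cells were shallower, which left 1654 uninjured and 1376 injured cells. The share of cells with a Ucn UMI went from 0.0% in each uninjured sample to 8.82, 7.57 and 15.2% after ONC. Mmp12 went from 0.0 to 1.11% of uninjured cells to 38.2, 29.1 and 45.8% of injured cells, so that a sizeable share of injured RGCs carried it in each sample. Mmp9 went the other way, from 16.6 to 28.5% to 0.654, 1.99 and 1.15% of cells. Crhbp went from 29.4 to 38.5% to 15.4, 16.7 and 9.07%, and Evc2 from 9.47 to 22.0% to 5.88, 6.77 and 6.19%. For these 5 genes the shares did not overlap, and the two-sided exact permutation test over 6 and 3 samples gave p = 0.0238, the smallest it can give, not adjusted for the 9 genes tested.

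The share of Spp1 carriers was 0.0 to 5.53% in uninjured and 5.23, 3.19 and 8.40% in injured samples (p = 0.0714, exact permutation test). This difference of 3.59 points became 4.30 points without uninjured 5 (p = 0.0357, exact permutation test). It was 2.19 points without injured 3/4 (p = 0.214, exact permutation test), and no other fit that left out 1 sample passed. Timp2 carriers made up 32.2 to 44.2% and 39.2, 36.3 and 43.5% (p = 0.286, exact permutation test), so no difference in carriers of Timp2 was called beside its higher level. Igf1 carriers made up 10.5 to 23.6% and 15.0, 17.5 and 21.7% (p = 0.571, exact permutation test). Ndnf carriers made up 4.90 to 8.70% and 7.84, 8.76 and 9.14% (p = 0.0476, exact permutation test), while no difference in its level was called. Without any one of uninjured 1, 2, 3, 4 or 6 that p was 0.0714. Without thinning, the difference in Timp2 carriers was -11.5 points and that in Ndnf carriers -1.99 points, the opposite sign, so no direction is read for these 2 shares.

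**Figure D2:**
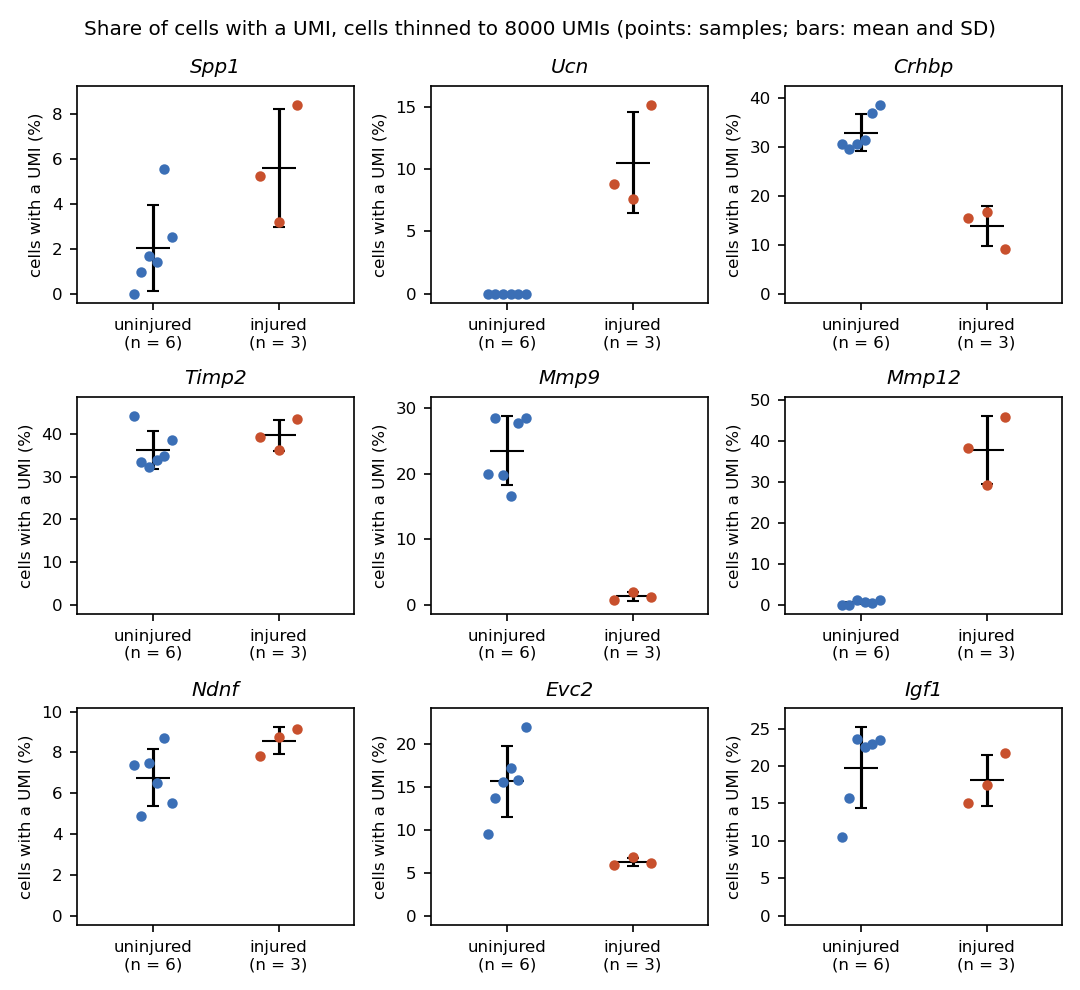
Percent of cells with at least 1 UMI of each gene (y axis, linear) after thinning each cell to 8000 UMIs, in 6 uninjured and 3 injured samples. Points are samples, and bars are the mean and SD. For Mmp12 the injured samples lie between 29.1 and 45.8% and no uninjured sample is above 1.11%.

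For free RNA, which puts UMIs into cells that do not use a gene, the rod transducin subunit genes Gnat1 and Gngt1 served as a reference at the same 8000 UMIs, as RGCs lack them. Gnat1 UMIs were in 0.0 to 0.791% of uninjured and 0.0 to 0.398% of injured cells, and Gngt1 UMIs in 0.0 to 1.58% and 0.0 to 1.59%. The Mmp12 shares of uninjured samples were not above the range of Gngt1, and the Mmp9 shares of injured samples were close to it. Neither share is therefore read as expression by itself. Before thinning, the 57 Mmp12 UMIs of uninjured libraries were in 25 of 1683 cells, with up to 8 in 1 cell. Whether a few uninjured cells expressed Mmp12 was not tested. Other photoreceptor genes had wider ranges, Sag with 2.5 to 3.16% of uninjured and 0.822 to 3.98% of injured cells, and Pde6b with at most 0.556% and with 6.21 to 6.77%. The Spp1 shares of most uninjured samples and of injured 2 were below the highest share of Sag, and the Spp1 share of injured 1 and the Evc2 shares of injured samples were not above those of Pde6b, so no expression is read from these shares alone. The 49 Mmp9 UMIs of all injured libraries were in 43 cells.

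Carriers differed in how much each cell held. After thinning, the mean over Mmp12 carriers was 2.18 to 2.98 UMIs in injured libraries, and that over Crhbp carriers was 1.70 to 2.19 UMIs, against 1.75 to 2.17 UMIs before ONC. Such a mean covers only cells that still held a UMI, so it does not separate fewer expressing cells from less RNA per cell. Evc2 carriers had 1.07 to 1.22 UMIs after and 1.39 to 1.73 UMIs before ONC. Igf1 carriers had 3.00 to 3.42 UMIs after and 2.57 to 3.56 UMIs before it. Timp2 was the most evenly spread, with 18.2 to 29.8% of its UMIs in the top 5% of cells before and 25.0 to 34.2% after ONC. For Igf1 that share reached 84.4% and 72.3%, and for Ndnf it was at least 76.0% in each library.

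The carriers were then described by markers of RGC subclasses, with no test, as percentages of cells in the thinned libraries averaged over samples. Igf1 and Ndnf were concentrated in cells with Opn4, the photopigment melanopsin of intrinsically photosensitive RGCs, or Eomes, a transcription factor of the same subclass. Before ONC, 79.6% of the Opn4 cells and 16.4% of the cells without Opn4 carried Igf1, and 52.1% and 4.30% carried Ndnf. After ONC the values were 68.8% and 14.8% for Igf1 and 42.5% and 6.47% for Ndnf. With Eomes, 72.5% against 15.9% carried Igf1 before ONC and 90.6% against 15.0% after it. Both genes were higher in the marked cells in 6 of 6 uninjured and 3 of 3 injured samples for both markers. Timp2 showed the same direction in all 9 samples for both markers, with 71.9% of Opn4 cells against 34.1% of the rest before and 69.7% against 37.7% after ONC.

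Crhbp and Evc2 had another distribution. Tbr1, a transcription factor of RGCs that include J-type cells, marked 93 uninjured cells, of which on average 79.3% carried Crhbp, against 30.3% of the cells without Tbr1. Evc2 was in 53.5% of the Tbr1 cells and 13.8% of the rest, and in 49.1% of the cells with Neurod2 against 13.0% of the rest. The level of both genes was higher with Tbr1 in 6 of 6 uninjured samples, and that of Evc2 was higher with Neurod2 in 6 of 6. Crhbp was nearly absent from Opn4 cells, of which 1.28% carried it before ONC. After ONC, 37.5% of the 37 Tbr1 cells carried Crhbp against 13.2% of the rest, and its level was higher with Tbr1 in 3 of 3 samples.

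After ONC, Ucn and Spp1 were found more often with Tfap2d. Ucn was in 29.7% of injured cells with Tfap2d, which encodes a transcription factor of some RGC types, and in 8.70% of the rest, and Spp1 in 22.4% and 4.05%, both higher in 3 of 3 samples. Ucn was also higher with Tbr1 in 3 of 3 samples, in 20.1% of Tbr1 cells against 10.3% of the rest. Before ONC, Spp1 was in 2.99% of the Tfap2d cells and 1.83% of the rest, in 8.75% of the Opn4 cells and 1.69% of the rest, and in 8.49% of the Eomes cells and 1.57% of the rest, with its level higher in the marked cells in 3 of 6 samples for each of these markers. After ONC Spp1 was in 7.92% of the Opn4 cells and 5.5% of the rest, and in 4.17% of the Eomes cells and 5.77% of the rest. Its level was higher with Opn4 in 2 of 3 injured samples and lower with Eomes in 2 of 3. Eomes cells rarely held Ucn, 0.556% against 11.0% of the rest after ONC, and their level of Mmp12 was lower in 3 of 3 samples, with 6.06% against 39.0% carriers. Opn4 cells likewise had fewer Mmp12 carriers, 15.0% against 39.2%, in 3 of 3 samples. Foxp2 cells held almost no Spp1 in either condition, 0.0% and 0.347%. Kcng4, the usual partner of Spp1 as a marker of alpha RGCs, had a UMI in only 10 of 1654 uninjured cells, too few to place Spp1 by it. Subclass markers themselves changed with ONC, Foxp2 from a mean of 102 to 43.0 CPM, Cartpt from 564 to 41.7 CPM and Neurod2 from 16.2 to 0.695 CPM, so a marked cell before and after ONC need not be the same type.

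**Figure D3:**
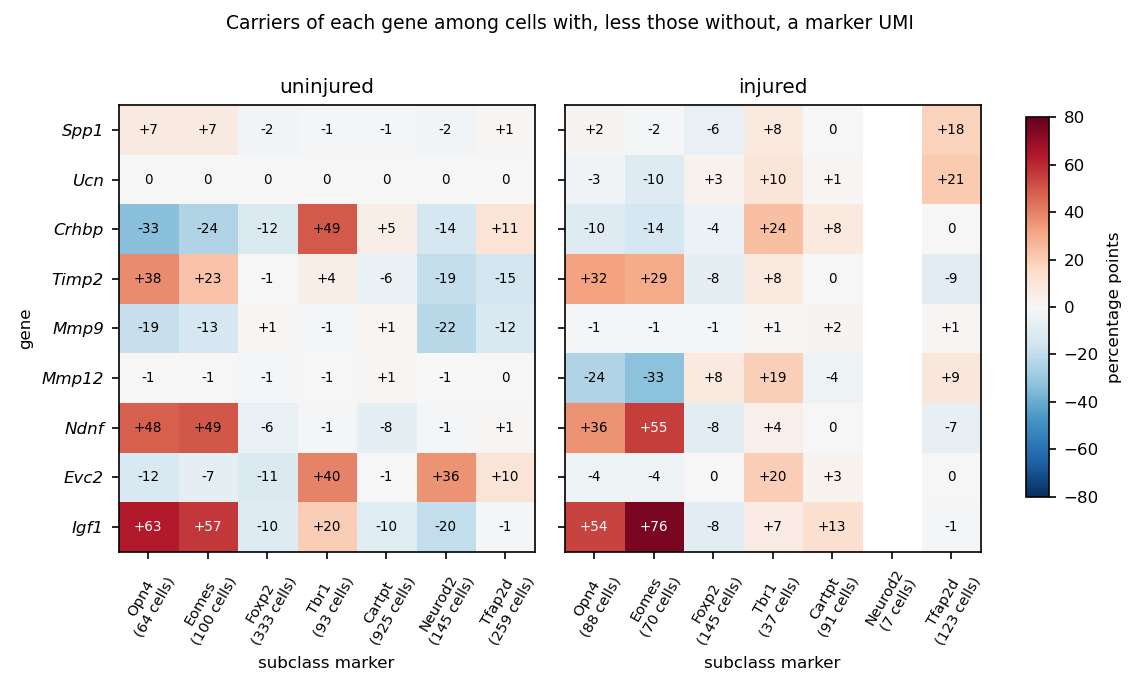
Difference, in percentage points, between the share of carriers of each gene (rows) among cells with and without a UMI of a subclass marker (columns), averaged over samples of each condition; cell numbers stand under the markers, and markers with under 10 cells are blank. Igf1 and Ndnf are highest with Opn4 and Eomes in both conditions, and Crhbp and Evc2 with Tbr1.

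Co-detection of the 9 genes in the same cells was described for all 36 pairs, and the pairs named here were chosen after their values were seen. In uninjured samples 18 pairs had carriers in every sample, and 3 were found together more often, and 3 less often, in all 6. In injured samples 10 of the 36 pairs were found together more often, and 6 less often, in all 3 samples. With only 3 samples some pairs share a direction by chance, so these counts are not read as a result. Spp1 and Ucn had the widest gap of these injured pairs. On average 64.6% of Spp1 carriers (56.3 to 75.0% over samples) also held Ucn, against 7.21% (5.76 to 9.66%) of the other injured cells. Mmp12 was in 63.1% of Spp1 carriers against 36.1% of the rest, and in 55.8% of Ucn carriers against 35.4%. The ligand gene Crh was in 26.5% of Ucn carriers against 9.23% of the rest, so most Ucn carriers had no Crh UMI at this depth. Igf1 and Mmp12 tended to be in different cells, with Igf1 in 11.4% of Mmp12 carriers and 22.4% of the rest, in that direction in 3 of 3 samples.

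Ndnf and Igf1 went together in both conditions. Before ONC 69.4% of Ndnf carriers held Igf1, against 16.2% of other cells, and after ONC 59.4% against 14.2%, with the same direction in 9 of 9 samples. In uninjured samples Evc2 was in 24.9% of Crhbp carriers against 11.2% of the rest, in 6 of 6 samples. Thinned cells all had the same depth, but cells of a sample share their library, and no test was made of these shares.

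**Figure D4:**
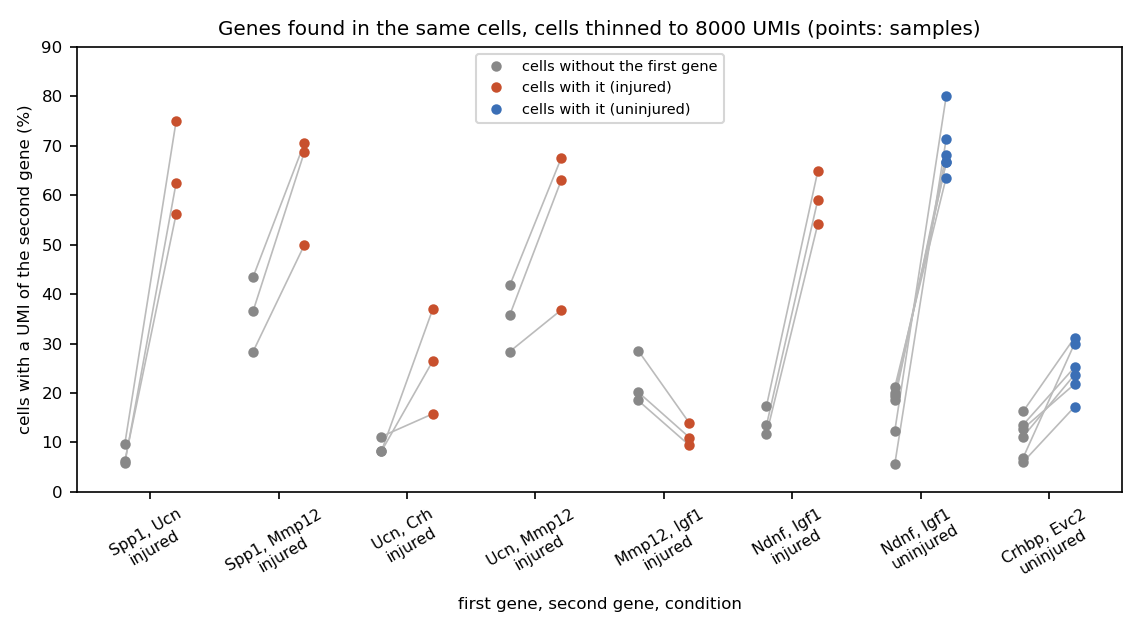
Percent of cells with a UMI of the second gene (y axis, linear from 0) among cells without (grey) and with (colour) a UMI of the first gene, after thinning to 8000 UMIs. Points are samples, and lines join values of 1 sample. In all 3 injured samples Ucn was in over 56% of Spp1 carriers and in under 10% of the other cells.

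The genes whose levels over cells were most like each gene were looked up among 10523 genes by the mean within-library Pearson correlation, as a description without a test. Likeness was ranked for the 5 genes found in at least 5% of cells of every library, Crhbp, Timp2, Ndnf, Evc2 and Igf1. Igf1 was closest to Etl4 (r = 0.614), Gpc5 (0.584), Atp2b4 (0.555), Ctxn3 (0.541) and Dgkg (0.528) over 6 uninjured samples, and to Oprm1 (0.553), Ndnf (0.537), Etl4 (0.524), Sphkap (0.505) and Trhde (0.5) over 3 injured ones. Ndnf was closest to Atp2b4 (0.525), Igf1 (0.506), Gpc5 (0.477), Ctxn3 (0.475) and Oprm1 (0.471) before ONC, and to Trhde (0.570), Igf1, Oprm1 (0.523), Gpc5 (0.521) and Atp2b4 (0.477) after it. Igf1 and Ndnf shared 3 of their 5 closest genes before ONC, and 2 after it, besides each other.

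Crhbp was closest to Mid1 (0.414), Aldoc (0.402), Pcdh11x (0.383), Sema3e (0.325) and Ramp3 (0.322) before ONC. After ONC its closest genes were Map2 (0.261), Cdh8 (0.244), Rgma (0.235), Sparcl1 (0.233) and Sorcs3 (0.225), none of them among the first 5. Evc2 was closest to Cdh20 (0.444), Inpp4b (0.400), Cplx1 (0.375), Lgals1 (0.358) and Kctd4 (0.353) before ONC, and to Caln1, Dpp10, Gm13629, Gm42439 and Abcg1 after it, where the highest r was 0.208. Timp2 had no close partner, with its highest values for Dgkg (0.270), Igf1 (0.244), 6330403K07Rik (0.242), Xylt1 (0.240) and Zcchc12 (0.239) before and Rgs4 (0.308), Etl4 (0.286), Chl1 (0.283), Clstn2 (0.277) and Sphkap (0.256) after ONC. Cells compared in this way share library and depth, and low values in sparse counts are not read as a finding.

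The other genes of the pathways were counted in the same test, in which 44.0% of all genes were called, 21.3% as higher and 22.7% as lower. All counts below are to be read against these shares. Of 7 corticotropin-releasing factor genes, 4 could be tested. Crh, the ligand that gives the family its name, rose with Ucn, from 0.0 to 1.47 CPM in uninjured samples to 80.2, 87.8 and 61.4 CPM (log2 fold change 6.57 ± 0.40, adjusted p = 2.09e-07, edgeR). Their receptor gene Crhr1 had a median of 30.3 CPM before and 25.9, 24.0 and 22.0 CPM after ONC, and did not pass the test (-0.41 ± 0.18, adjusted p = 0.0903, edgeR), although each injured value was below the lowest uninjured one. Crhr2, the other receptor gene, was at no more than 1.40 CPM in any sample and was not tested. Both ligand genes that could be tested were higher and the binding protein gene lower, and no change was called for the receptor gene that could be tested. The ligand genes Ucn2 and Ucn3 were not tested.

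Of 21 metalloproteinase genes 8 could be tested, and 4 rose and 2 fell (6 of 8 called, against 44.0% of all genes). Mmp16, a membrane-bound member, rose from 78.3 to 134 CPM to 585, 491 and 395 CPM (2.12 ± 0.20, adjusted p = 6.99e-06, edgeR). Mmp19 and Mmp28 also rose, and Mmp17 fell with Mmp9. The median change over the 8 was 0.90 on the log2 scale, against -0.03 over all genes tested. Of the 5 inhibitor genes 3 rose, and the other two, Timp4 and Reck, did not pass the edgeR test. Timp3, an inhibitor bound to the matrix, rose from 1.59 to 13.3 CPM to 26.3, 19.5 and 23.6 CPM (1.56 ± 0.44, adjusted p = 0.0129, edgeR). Timp1, which inhibits Mmp9 among others, rose from at most 0.411 CPM to 4.38, 6.74 and 2.69 CPM (4.08 ± 0.52, adjusted p = 6.77e-05, edgeR).

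Among 12 tested genes of the IGF system 4 rose and 2 fell, with a median change of 0.14, and 6 of 12 called is near the 44.0% of all genes. The receptor gene Igf1r overlapped between conditions, at 83.2 to 151 CPM before and 142, 132 and 112 CPM after ONC (0.10 ± 0.19, adjusted p = 0.713, edgeR). The binding proteins, which hold IGF outside cells, split. Igfbp3 rose from at most 1.28 CPM to 57.8, 44.2 and 50.5 CPM (5.80 ± 0.21, adjusted p = 5.33e-09, edgeR), and Igfbp5 fell from 10.4 to 24.5 CPM to 3.50, 4.72 and 6.71 CPM (-1.92 ± 0.30, adjusted p = 2.84e-04, edgeR). Of the receptor substrates, Irs2 rose (1.11 ± 0.16) and Irs1 fell (-0.89 ± 0.15), and Igf2r, which clears IGF2, rose (1.06 ± 0.14).

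Of 10 tested osteopontin receptor genes 6 rose and 1 fell (against 21.3% and 22.7% of all genes), with a median change of 0.82. Cd44, a receptor for osteopontin and hyaluronan, rose from 1.35 to 3.70 CPM to 108, 98.4 and 124 CPM (5.42 ± 0.23, adjusted p = 1.62e-08, edgeR). The integrin genes Itga5 (4.18 ± 0.28), Itgb1 (0.74 ± 0.13) and Itgav (0.74 ± 0.19) rose too, and Itga4 fell (-1.1 ± 0.20). Cd44 was in 47.1% of thinned injured cells and in 2.52% of uninjured ones, on average over samples, a much wider group than the Spp1 carriers.

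Of 11 tested genes of the Evc complex and the hedgehog response, 3 fell and the other 8 did not pass the edgeR test, with a median change of -0.52. The 3 of 11 are near the 22.7% of all genes called lower. Evc, which encodes the partner of Evc2 in the cilium, was at 1.35 to 2.24 CPM before and 1.40, 2.25 and 1.88 CPM after ONC (0.06 ± 0.30, adjusted p = 0.942, edgeR). The ligand gene Shh fell from 15.8 to 23.1 CPM to 7.35, 10.1 and 10.2 CPM (-1.0 ± 0.18, adjusted p = 7.27e-04, edgeR), and Gpr161, which encodes a ciliary receptor that holds the pathway off, was the third. The response gene Gli1 and the transducer gene Smo were too low to be tested.

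Among 13 tested genes of secreted neurotrophic factors, which include Spp1, Ndnf and Igf1, 4 rose and 4 fell (8 of 13, against 44.0% of all genes). Bdnf rose from 27.0 to 65.8 CPM to 118, 119 and 105 CPM (1.1 ± 0.22, adjusted p = 1.57e-03, edgeR), and Manf rose by 0.85 ± 0.14 on the log2 scale. Vegfb fell (-2.08 ± 0.25), as did Ptn (-0.85 ± 0.14). The list median was -0.02, against -0.03 over all genes tested.

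**Figure D5:**
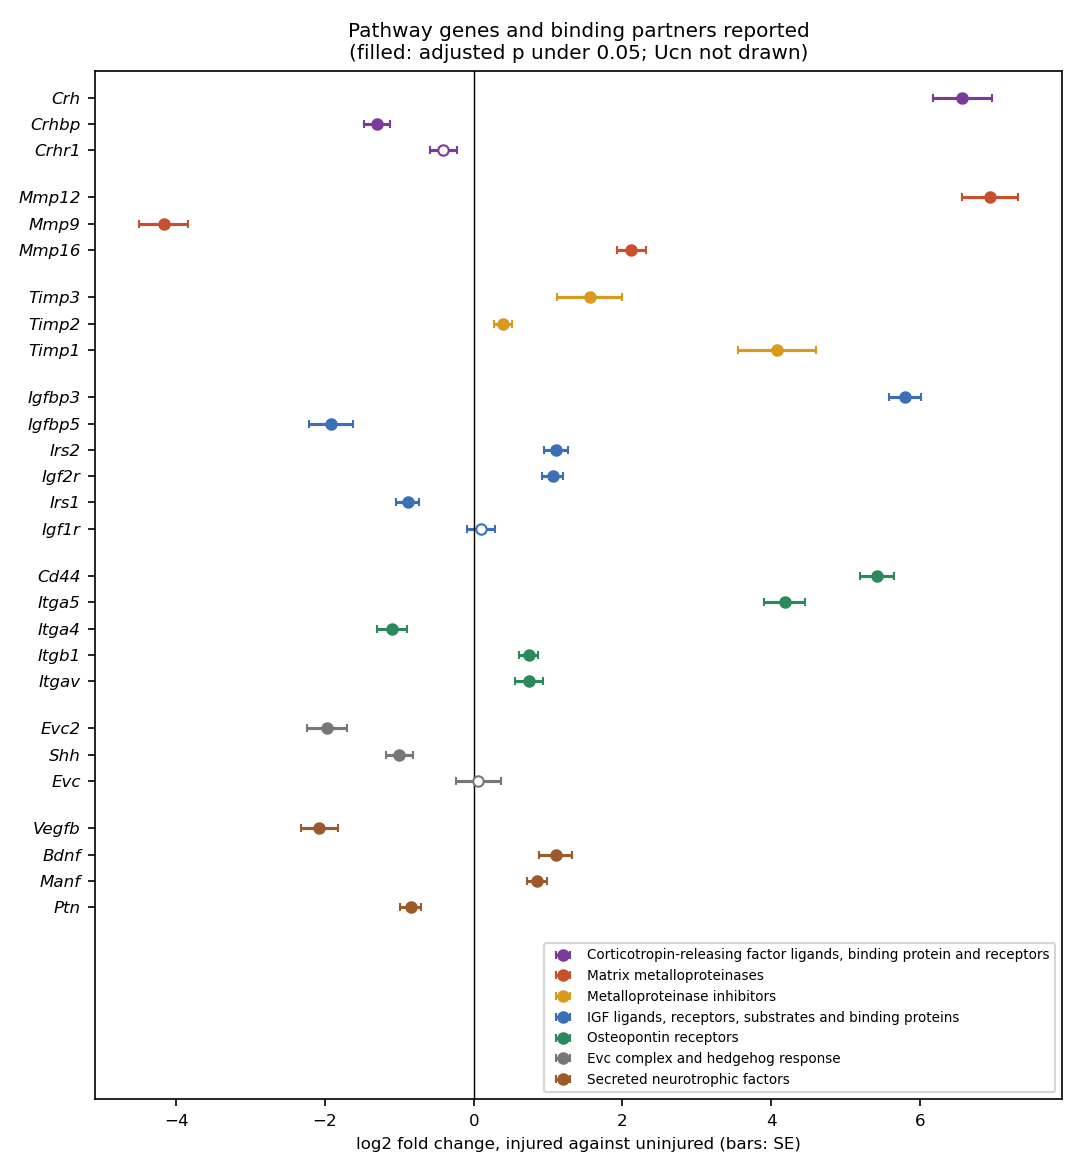
Log2 fold change (x axis, injured against uninjured) with its SE for the named genes of each pathway list. Filled points passed the test (adjusted p under 0.05), open points did not. Crh, Mmp12, Igfbp3 and Cd44 lie above 5, and Crhr1, Igf1r and Evc are open. Ucn has no point because it had no UMI in uninjured cells.

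Spp1, Igf1 and Mmp12 are also genes of microglia and macrophages, so markers of those cells were examined. The 13 markers summed to 6.43 to 21.4 CPM in uninjured and 15.6 to 25.8 CPM in injured samples, 9 of the 13 were at no more than 1 CPM in every sample in each condition, and C1qa, C1qc and Tyrobp were at 0 in the injured ones. Cx3cr1, a receptor gene of microglia, rose from a mean of 3.39 to 9.65 CPM (1.36 ± 0.43, adjusted p = 0.0230, edgeR), with samples that overlapped. Cells with UMIs of at least 3 of these markers made up 1 of 752 injured Mmp12 carriers, 1 of 103 Spp1 carriers and 0 of 416 Igf1 carriers. Amacrine markers moved with ONC, although the study's methods name a depletion of amacrine cells, with a sum over 7 genes of 56.5 to 218 CPM before and 266 to 324 CPM after it. With all cells left out that held UMIs of at least 3 markers of another class, the log2 fold change was 6.82 for Mmp12, -5.01 for Mmp9, -1.25 for Crhbp, -2.02 for Evc2 and 0.43 for Timp2, and the same 6 genes passed the test.

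Injured 3/4 had the highest level of Spp1, Ucn and Mmp12 of the 3 injured samples. In cells thinned to 8000 UMIs, whose levels are not comparable with those of whole samples, cells of injured 3 and 4 with an mCherry UMI had 100.3 and 127 CPM of Spp1, against 11.4 and 29.8 CPM in the 55 and 42 cells without one, and 73.5 and 99 CPM of Ucn against 20.5 and 20.8 CPM. Mmp12 had 157 and 192 CPM against 97.7 and 92.3 CPM. In injured 1 and 2, with 26 and 34 mCherry cells, Spp1 had 38.5 and 40.4 CPM with and 31.7 and 17.3 CPM without mCherry. Spp1 was thus higher with mCherry in all 4 injured libraries, which stand for 3 samples because injured 3 and 4 share cells. The smaller group of each library held very few Spp1 carriers. They were 7.69% of the 26 and 8.82% of the 34 mCherry cells of injured 1 and 2. In injured 3 and 4 they were 3.64% of the 55 and 4.76% of the 42 cells without mCherry. A single cell could turn this order, so no pattern is read from it. The order in injured 1 and 2 was the other way for Ucn (28.8 and 11.0 CPM with, 33.0 and 20.2 CPM without) and Mmp12 (76.9 and 69.9 CPM with, 107 and 91.0 CPM without). The part of the virus in these levels was not tested.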

How the data were processed

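Thy1-immunopanned mouse RGCs were sequenced on the 10x Chromium system. Per the study's methods, reads were aligned to mm39 with Cell Ranger (version 7.0.1 in the submitters' processing notes), and cells were kept that expressed 4 pan-RGC markers and passed limits of 500 genes (minimum), 20% mitochondrial UMIs and 150000 UMIs (maxima, the last against doublets). The deposited values are whole-number UMI counts, not normalized by the authors, and every deposited cell was inside these limits on genes, mitochondrial share and UMIs. The methods state fewer injured cells than the tables hold. The labels and the study's methods name different kit versions and sequencers, and the methods another Cell Ranger version, and which held for which library is not given in the sources used here. A kit that differed between libraries would change depth and shares of cells with a UMI. Doublets were not called again. Cell Ranger counts reads in the sense of a gene. Python 3.11.15 (pandas 2.3.3, scipy 1.17.1, numpy 2.4.6) summed the counts of each library, injured 3 and 4 were averaged with rounding to 1 sample, and edgeR 4.0.16 in R 4.3.3 (filterByExpr, TMM, robust quasi-likelihood fit, condition as the only term, Benjamini-Hochberg over all genes tested, threshold 0.05) compared 3 injured with 6 uninjured samples. CPM values of samples are TMM-scaled, marker sums and the limit for Ucn use library totals, and levels in cells with and without mCherry use thinned cells. Shares of cells were compared on cells thinned to 8000 UMIs by exact permutation over samples. DESeq2 1.42.0, limma 3.58.1 (voom) and other factors, filters, cells and samples were alternatives. Replicate numbers were checked and do not pair the samples. The 9 genes, the pathway lists and the tests were chosen with earlier results of these data known. All 9 genes were named, and from each list up to 5 genes past the threshold, those of largest absolute log2 fold change whose average log2 CPM was 3 or more, and binding partners whatever they did. Positions and sequences came from GENCODE vM39 and the mm39 (GRCm39) genome. Protein sequences were not used here. A few genes of the lists are not reported here.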

Additional observations from a re-analysis of the deposited data

Results flagged for a closer look

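Samples far from the other samples of their group were looked for among the 6 uninjured samples, for the level of each gene named by rule and for the share of cells with a UMI of each of the 9 genes, by the gap to the nearest sample over the whole range (Dixon's test at 95%). Of 42 such sets 3 were past the critical value, and chance alone passes about 1 in 20.

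Mmp12 stood at 2.95 CPM in uninjured 6, above the other uninjured samples (gap over range 0.637), and still far below every injured sample. Igf1 stood at 47.2 CPM in uninjured 1, below the other uninjured samples (gap over range 0.634). That library was the smallest, with 98 cells and 2839693 UMIs. The receptor gene Crhr1 stood at 46.8 CPM in the same library, above the others (gap over range 0.760).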

How the results depend on the processing

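Across 13 alternatives and 9 fits that each left out 1 sample, Crhbp, Mmp9 and Evc2 kept their direction and passed the test in every fit, as did Ucn and Mmp12 in every fit that tested them (all but the filter of at least 10 counts in every sample, which also left Spp1 untested). The number of the 9 genes past the threshold ranged from 4 to 7. The number of other pathway genes past it was 30, and 15 under that filter, which tests fewer genes. The call for Timp2 was lost without a filter on low counts (0.388) and with similar libraries summed (0.406), and its log2 fold change with 1 sample left out was 0.362 to 0.433 (not past the threshold without injured 2 or injured 3/4). Spp1 passed the test with voom and sample weights (3.07), in cells thinned to 8000 UMIs (2.14), in cells of at most 10% mitochondrial UMIs (2.45) and with 10 libraries as separate samples (2.41). Its log2 fold change ranged from 1.20 to 2.64 with 1 sample left out, and passed without uninjured 5 (2.64) and without uninjured 6 (2.46). The cause was not tested.

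Same-numbered libraries 1 to 4 of the conditions correlated at -0.0592 to 0.0119, so the numbers share only a label. With these 8 libraries Spp1 passed with the replicate block (4.30) and without it (3.75), and 7782 and 8230 genes passed in all. These 2 fits, and that with 10 libraries, count injured 3 and 4 as separate samples although they share cells, so their calls for Spp1 rest on more replicates than there are.

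Ndnf and Igf1 were not called in any fit. Ndnf changed sign in thinned cells (0.384), without cells of another class (0.0598), with at most 10% mitochondrial UMIs (0.00999), with 10 libraries (0.0889), with the block (0.174), without it (0.158) and with similar libraries summed (0.106), and ranged from -0.243 to 0.191 with 1 sample left out. Igf1 changed sign in thinned cells (0.00312).

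The share of Spp1 carriers passed at 5000 UMIs (3.30 points) and with at least 2 UMIs (3.43), and ranged from 2.19 to 4.80 points with 1 sample left out. The Timp2 share changed sign unthinned (-11.5) and passed at 5000 UMIs (6.68). The Ndnf share changed sign unthinned (-1.99), was not past the threshold at 5000 UMIs (1.02), with at least 2 UMIs (0.438) or without cells of another class (2.06), and ranged from 1.47 to 2.23 with 1 sample left out. With 2 injured samples the permutation test cannot go below 0.0714. Depth limits these shares, since a cell holding 1 UMI of a gene at 8000 UMIs is at the limit of detection. The limit by which Ucn was higher was 847 to 1670 with 1 injured sample left out, an alternative chosen after seeing the data.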
